A study of Mus musculus with 7 samples.

Results

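The kinesins are motor proteins that walk along microtubules, and their transcripts were followed here in mouse oocytes passing from the germinal vesicle (GV) stage to metaphase II (MII), with and without the RNA G-quadruplex (rG4) ligand BYBX. Members were all listed entries whose symbol was Kif followed by a digit, or by c and a digit. This gave 44 of 25908 entries. Of these, 42 are motor genes, Kif16bos is an antisense transcript and Kif4-ps is a pseudogene.

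The 7 libraries were made with Smart-seq2, which copies polyadenylated RNA from an oligo-dT primer, each from 10 oocytes pooled from C57BL/6 females. Donors were 4 weeks old and primed with PMSG (a gonadotrophin that drives follicle growth), and oocytes were collected 44 h later. There were 2 libraries of GV oocytes, 3 libraries of MII oocytes cultured with DMSO, the solvent of BYBX, and 2 libraries of MII oocytes cultured with BYBX, a fluorescent small molecule that binds folded rG4s. MII oocytes had been cultured for 16 h. The study reports less polar body emission at higher BYBX doses, and abnormal spindles in treated oocytes that reached MII. Any difference in meiotic progress between the MII groups cannot be told apart from treatment here. The labels give the GV libraries no treatment, whereas the study's text describes DMSO for GV and MII controls alike. The labels carry "Treat" in a genotype field for the BYBX libraries, although no altered allele is described. Neither the labels nor the Smart-seq2 methods name the dose of BYBX for these libraries. Labels do not say whether libraries of a group came from separate animals, so p-values measure the spread between libraries, which may be technical.

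Values were FPKM, fragment counts divided by transcript length and by the mapped fragments of the library, rescaled by the authors to an added ERCC spike-in so that the total may differ between libraries. Total FPKM was 402113 to 489569 in GV oocytes, 109732 to 127254 in MII oocytes with DMSO and 201482 to 246710 with BYBX. All 8 oocyte markers (such as Zp3 and Gdf9) were present, summing to at least 2439 FPKM in every library. The 11 markers of granulosa and cumulus cells summed to 5.59 to 12.04 FPKM in GV oocytes, 1.51 to 1.91 with DMSO and 2.53 to 2.56 with BYBX. Ptx3 was at 0 in every library and Tnfaip6, Has2, Amh, Amhr2, Foxl2, Fshr and Inhba in some. Inha, Cyp19a1 and Cyp11a1 were above 0 in every library. In GV oocytes Inha was at 5.48 and 1.94 FPKM, Cyp19a1 at 4.49 and 2.19, and Cyp11a1 at 0.569 and 0.563. In MII oocytes Inha was at 0.0927 to 0.221 FPKM, Cyp19a1 at 1.29 to 1.72 and Cyp11a1 at 0.0557 to 0.552. The part of granulosa and cumulus cells in the kinesin values was not tested. Fewer cells and less RNA per cell cannot be told apart in such pools. Sequencing depth is unknown, because FPKM keep no read counts.

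Kinesins share a motor domain that turns ATP hydrolysis into steps along the microtubule, and most walk to its plus end. In oocytes they build the acentrosomal meiotic spindle, align chromosomes on it and organise the central spindle from which the polar body is cut off. Other members carry vesicles, mitochondria and receptors or act in cilia. The fully grown oocyte hardly transcribes, and maternal mRNAs stored at the GV stage are translated or degraded as meiosis resumes. How much kinesin message is read in MII oocytes, and how that differs when an rG4 ligand is present, is the question of the 3 group comparisons. The study describes polyadenylation of maternal mRNAs after meiosis resumes, and oligo-dT priming needs a poly(A) tail. Changes in tail and in amount cannot be told apart here, so kept, retained and gone refer to FPKM only. The comparisons share libraries with one another.

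On the spike-in scale the kinesin transcript pool was smaller in MII oocytes than in GV oocytes, and less so with BYBX than with DMSO. The summed FPKM of the 44 entries was 944 and 618 in the GV libraries, 186, 190 and 185 in MII oocytes with DMSO, and 410 and 362 with BYBX. No group overlapped another. The mean with DMSO was 23.9% of that in GV oocytes, the mean with BYBX was 2.07 times that with DMSO, and the mean with BYBX was 49.4% of that in GV oocytes. Two-sided exact permutation tests gave p = 0.1, 0.1 and 0.333, the smallest these numbers of libraries allow. As a part of all transcripts the pool did not separate the groups. Kinesins made up 0.193% and 0.154% of total FPKM in GV oocytes, 0.169%, 0.154% and 0.145% with DMSO, and 0.166% and 0.180% with BYBX. These ranges overlapped in each comparison (exact permutation p = 0.4, 0.3 and 1).

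Of the 44 entries, 23 had a mean of the 3 group means of at least 1 FPKM and were tested with limma on log2(FPKM + 1). These were 13 of 15 spindle and division members, 8 of 17 cargo transport members and 2 of 10 members with roles in cilia, centrioles and elsewhere. Relative to GV oocytes, 23 of the 23 were lower with DMSO (adjusted p under 0.05), where 88.3% of all 9202 tested entries were lower. Relative to DMSO, 15 of 23 were higher under BYBX and 0 were lower, where 65.2% of all entries were higher and 0.0326% lower. Relative to GV oocytes, 13 of 23 were lower under BYBX and 0 were higher, where 69.2% of all entries were lower and 0.315% higher. Libraries of the groups did not overlap for 23 members (lower with DMSO than in GV oocytes, as 92.5% of all entries were, with 0.315% higher), for 19 (higher under BYBX than under DMSO, as 79.0% were, with 0.293% lower) and for 18 (lower under BYBX than in GV oocytes, as 82.3% were, with 0.848% higher). A minimum change of 2-fold left 17, 5 and 6 members, against 74.9% of entries lower and 0.0869% higher with DMSO than in GV oocytes, 42.1% higher and 0.0109% lower under BYBX than under DMSO, and 49.2% lower and 0.196% higher under BYBX than in GV oocytes. The median log2 differences of the members in these comparisons were -1.43, 0.72 and -0.81, and those of all tested entries were -1.83, 0.84 and -0.99. With no minimum change, the share called under BYBX relative to DMSO was that of all entries, while with the 2-fold minimum the members' shares under BYBX lay well below. The members' medians were nearer to 0 than those of all entries in each comparison.

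What set members apart was how far each moved against this shift. Rescaled to the same total FPKM in every library, 5 members were lower (Kif17, Kif22, Kif4, Kif18b and Kif9) and 6 were higher (Kif18a, Kif1b, Kif20a, Kif20b, Kif23 and Kif5c) with DMSO than in GV oocytes, against 49.5% and 23.3% of all entries. On the same scale, 5 were higher with BYBX than with DMSO (Kif17, Kif18b, Kif22, Kif2c and Kif9) and 1 was lower (Kif5b), against 39.9% and 8.22%. Between BYBX and GV, Kif22 alone was lower and Kif20a alone was higher, against 13.3% and 5.30%. With log2 values centred on each library's median, 2 were lower and 17 higher in the first comparison (26.7% and 48.8% of all entries), 2 were higher and 13 lower under BYBX relative to DMSO (18.4% and 43.9%), and 2 were lower and 6 higher under BYBX relative to GV (13.6% and 15.2%). Kif22 and Kif17 were the 2 on the first side of each of these comparisons. They kept their direction under every scaling tried. Median centring left the median tested entry at 0.47, -0.44 and 0.037 in these comparisons, in the same order. A member that moved with the median entry can therefore turn its sign on that scale. Unless another scale is named, fell and rose refer to the spike-in scale.

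**Figure D1:**
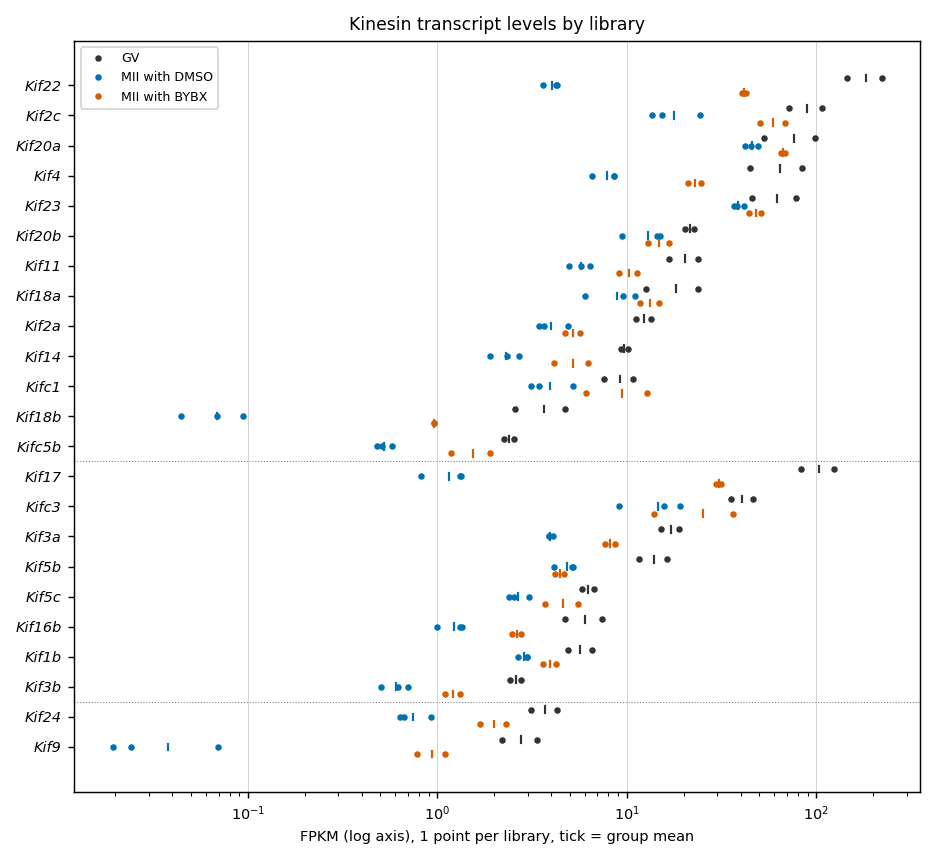
FPKM of the 23 tested kinesin entries on a log axis, with 1 point per library, a short vertical mark at each group mean, and dotted lines between spindle, transport and other members. The libraries with DMSO lie left of the GV libraries for all 23, by far the most for Kif22, Kif18b, Kif17 and Kif9.

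The chromokinesins Kif22 and Kif4 bind chromosome arms through DNA-binding domains, and both fell on meiotic maturation. Kif22, which pushes arms towards the spindle equator, was at 222 and 144 FPKM in GV oocytes, 4.22, 3.61 and 4.29 with DMSO, and 42.4 and 40.5 with BYBX. The 3 groups were far apart, with GV highest and DMSO lowest. Kif22 retained 2.21% of its GV mean with DMSO and 22.6% with BYBX. The log2 difference was -5.16 (SE 0.26, adjusted p = 6.95e-10) between DMSO and GV and 3.08 (SE 0.26, adjusted p = 3.8e-07) between BYBX and DMSO. Among all listed entries its percentile was 98.1 to 98.6 in GV oocytes, 87.4 to 89.1 with DMSO and 95.9 to 96.6 with BYBX. A percentile does not depend on the scaling of a library.

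Kif4, which acts in chromosome condensation and with Prc1 on the central spindle, was at 84.4 and 44.7 FPKM in GV oocytes, 8.51, 6.54 and 8.61 with DMSO, and 21.1 and 24.7 with BYBX. The order of groups was that of Kif22, with smaller differences. Its log2 difference was -2.82 (SE 0.29, adjusted p = 5.51e-07) with DMSO against GV and 1.43 (SE 0.29, adjusted p = 0.000744) with BYBX against DMSO. Its fall with DMSO was called at the same total (-1.04) but not after median centring (-0.52). On neither of these scales was its rise with BYBX over DMSO called, nor its difference between BYBX and GV.

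Members of the kinesin-13 family do not walk but take microtubule ends apart. Kif2c, which acts at centromeres to correct attachments, was at 107 and 72.03 FPKM in GV oocytes, 13.6, 15.4 and 24.4 with DMSO, and 68.1 and 50.4 with BYBX. With BYBX it lay well above all DMSO libraries and below both GV libraries, with a mean at 66.1% of that in GV oocytes. It fell by 2.28 (SE 0.30, adjusted p = 7.2e-06) with DMSO and was higher by 1.71 (SE 0.30, adjusted p = 0.000255) with BYBX than with DMSO. Against GV the difference with BYBX was -0.58 (95% interval -1.29 to 0.14, adjusted p = 0.136). Its difference between BYBX and DMSO was 0.85 at the same total, still called, and 0.43 after median centring, not called, while its fall with DMSO was called on the spike-in scale only. Its paralogue Kif2a, which acts at spindle poles, did not follow this. Kif2a was at 11.2 and 13.4 FPKM in GV oocytes, 3.66, 4.92 and 3.43 with DMSO, and 4.73 and 5.64 with BYBX, so that the MII groups overlapped. It fell by 1.42 (SE 0.24, adjusted p = 6.53e-05) with DMSO, and its difference between BYBX and DMSO was 0.31 (95% interval -0.19 to 0.82, adjusted p = 0.25).

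Kif11, the kinesin-5 that slides antiparallel microtubules apart to make a bipolar spindle, was at 23.8 and 16.8 FPKM in GV oocytes, 5.70, 6.42 and 4.97 with DMSO, and 9.14 and 11.4 with BYBX. It stayed between the other groups with BYBX, at 50.6% of the GV mean against 28.1% with DMSO. Its difference was -1.65 (SE 0.25, adjusted p = 2.6e-05) and then 0.75 (SE 0.25, adjusted p = 0.0182), but at the same total these became 0.07 and -0.04, with neither called. After median centring they turned to 0.65 and -0.53, and both were called. Kif15, the plus-end motor that can share this task, was too low to test, at 0.278 to 0.653 FPKM over the 7 libraries.

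The kinesin-8 motors Kif18a and Kif18b limit the growth of microtubule plus ends. Kif18a was at 23.8 and 12.6 FPKM in GV oocytes, 11.1, 9.56 and 6.001 with DMSO, and 11.8 and 14.8 with BYBX. GV and BYBX libraries overlapped, and those with DMSO were the lowest. It fell by 0.93 (SE 0.31, adjusted p = 0.0128) with DMSO, but it rose by 0.81 at the same total. Kif18b was far scarcer, at 4.74 and 2.58 FPKM in GV oocytes, 0.0687, 0.0939 and 0.0446 with DMSO, and 0.963 and 0.955 with BYBX. It kept 1.89% of its GV mean with DMSO and 26.2% with BYBX, close to the pattern of Kif22 and unlike its paralogue. The log2(FPKM + 1) differences of -2.08 (SE 0.20, adjusted p = 3.23e-07) and 0.87 (SE 0.20, adjusted p = 0.00205) understate these changes, since the added 1 exceeds its MII levels. After median centring they turned to 0.22 and -0.40, with neither called, whereas at the same total Kif18b was called in the original directions.

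The kinesin-6 motors Kif20a, Kif23 and Kif20b, which act on the central spindle and in cytokinesis, kept the largest parts of their GV means with DMSO among the 23. Kif20a, which brings the chromosomal passenger complex to the central spindle, was at 98.4 and 53.3 FPKM in GV oocytes, 49.2, 45.4 and 42.3 with DMSO, and 68.5 and 65.1 with BYBX. It was the fourth kinesin by mean level in GV oocytes and the first in both MII groups. It kept 60.2% of its GV mean with DMSO, where the median tested entry kept 16.3%, and 88.0% with BYBX, where the median was 43.4%. It fell by 0.66 (SE 0.28, adjusted p = 0.0415) with DMSO, but it rose by 1.198 at the same total and by 1.65 after median centring. The difference between BYBX and DMSO was 0.54 (95% interval -0.07 to 1.15, adjusted p = 0.107).

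Kif23, the motor subunit of centralspindlin, was at 77.9 and 45.6 FPKM in GV oocytes, 41.6, 38.0 and 36.9 with DMSO, and 44.4 and 51.4 with BYBX. One GV library lay within the range with BYBX. Kif23 was the best retained of the 23 with DMSO, at 62.9% of the GV mean. Its fall of 0.61 (SE 0.27) only just passed the threshold (adjusted p = 0.0498) and turned to a rise of 1.24 at the same total and 1.70 after median centring. Its difference between BYBX and DMSO was 0.29 (95% interval -0.30 to 0.88, adjusted p = 0.349).

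Kif20b, needed late in cytokinesis, was at 22.7 and 20.2 FPKM in GV oocytes, 14.4, 15.0 and 9.39 with DMSO, and 16.6 and 12.9 with BYBX. The MII groups overlapped, and both lay below GV. It fell by 0.71 (SE 0.27, adjusted p = 0.0222) with DMSO, a rise of 1.07 at the same total, and differed by 0.20 (95% interval -0.38 to 0.77, adjusted p = 0.522) between BYBX and DMSO. Kif14, which acts with citron kinase at the midbody, was at 10.1 and 9.30 FPKM in GV oocytes, 1.89, 2.33 and 2.71 with DMSO, and 6.22 and 4.14 with BYBX. Unlike the kinesin-6 motors it kept only 23.8% with DMSO, with a fall of 1.70 (SE 0.24, adjusted p = 1.15e-05). It was higher by 0.89 (SE 0.24, adjusted p = 0.00492) with BYBX than with DMSO. After median centring this turned to -0.39, not called, and the fall of Kif14 with DMSO turned to 0.60, called.

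Kifc1 and Kifc5b are kinesin-14 motors, which walk to the minus end, and Kifc1 crosslinks microtubules at spindle poles. Their longest annotated transcripts share 1367 stretches of 31 bases, 58.8% of those in Kifc1 and 52.6% of those in Kifc5b, so reads could be split between them and their single values are uncertain. Kifc1 was at 10.8 and 7.54 FPKM in GV oocytes, 3.13, 3.45 and 5.21 with DMSO, and 12.8 and 6.13 with BYBX. The BYBX libraries spanned those of GV oocytes. Kifc1 was the only tested member whose mean with BYBX was above GV, at 103%, and without the first BYBX library its rise over DMSO was 0.55 and no longer called, against 1.03 (SE 0.31, adjusted p = 0.00959) with both. Kifc5b was at 2.54 and 2.26 FPKM in GV oocytes, 0.578, 0.481 and 0.509 with DMSO, and 1.89 and 1.18 with BYBX, in 3 separate ranges. It fell by 1.16 (SE 0.19, adjusted p = 5.09e-05) with DMSO and was 0.72 higher (SE 0.19, adjusted p = 0.00424) with BYBX than with DMSO, but after median centring these became 1.15 and -0.56, both called.

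**Figure D2:**
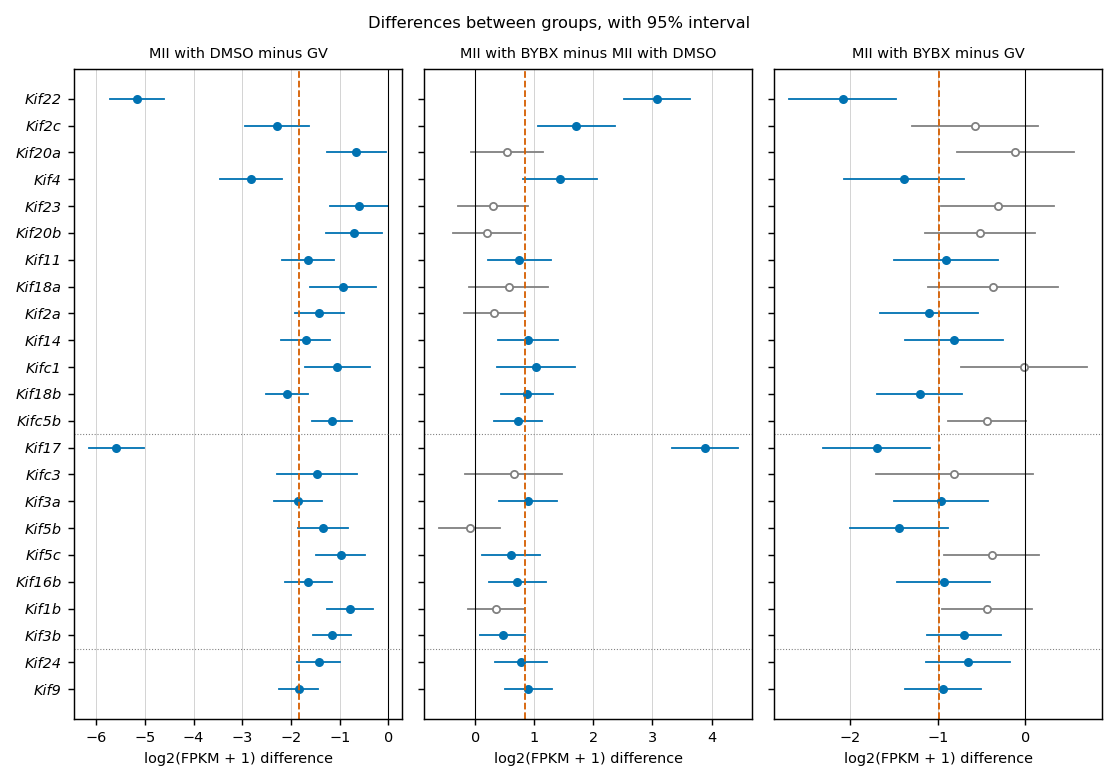
Differences in log2(FPKM + 1) for the 23 tested kinesin entries in the 3 comparisons, as points with 95% intervals, filled where the adjusted p was under 0.05, with dotted lines between spindle, transport and other members. The dashed line is the median of all 9202 tested entries (-1.83, 0.84 and -0.99), from which Kif22 and Kif17 lie farthest in the first 2 panels.

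Among cargo transport members Kif17 stood apart. Kif17, a kinesin-2 motor best known for carrying NMDA receptors in dendrites and for its entry into cilia, was the second most abundant kinesin in GV oocytes. It was at 124 and 83.2 FPKM in GV oocytes, 1.34, 0.815 and 1.31 with DMSO, and 31.6 and 29.6 with BYBX. The mean with DMSO was 1.11% of that in GV oocytes, the least of the 23, and with BYBX it was 29.5%. Its log2 differences were -5.58 (SE 0.26, adjusted p = 4.42e-10) with DMSO against GV, 3.88 (SE 0.26, adjusted p = 7.52e-08) with BYBX against DMSO and -1.70 (SE 0.28, adjusted p = 0.000211) with BYBX against GV. The last of these was -0.72 at the same total, not called, and -0.68 after median centring, called. Its percentile among all entries was 96.3 to 97.0 in GV oocytes, 76.4 to 80.8 with DMSO and 94.6 to 95.2 with BYBX.

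Because BYBX binds rG4s, the longest protein-coding transcript of each member (GENCODE vM21, on GRCm38, which is mm10) was searched on the sense strand for 4 runs of GGG or more with 1 to 7 bases between them. The 42 motor genes all had such a transcript, and 11 of them held a match. Of the 23 tested members 3 did (13.0%), where 18.6% of 8850 tested genes with a transcript did, and at the members' own transcript lengths the median share was 20.5%. The sequences of these 3 are shown because they are the places in the tested kinesins where a ligand of rG4s could bind by this motif. Capitals mark the G runs, and each is the sense strand, 5′ to 3′.
Kif17, 5′ UTR, chr4:138262308-138262331, plus strand: GGGacGGGcgagcccGGGcgcGGG
Kif16b, 5′ UTR, chr2:142901466-142901488, minus strand: GGGGcGGGtgagaGGGaagtGGG
Kif24, coding sequence, chr4:41395236-41395251, minus strand: GGGtGGGaGGGcaGGG

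These 3 members did not move alike. Kif17 was 3.88 higher with BYBX than with DMSO, whereas Kif16b, which moves early endosomes, was higher by 0.71 (SE 0.22, adjusted p = 0.0132) and Kif24, a kinesin-13 at the mother centriole, by 0.77 (SE 0.21, adjusted p = 0.00472). The last pair lay next to the median of all 23 members, 0.72, and after median centring both turned, to -0.57 and -0.50, and were called lower. Kif22, which had no match in the transcript searched, was higher by 3.08. Whether a match bears on the level with BYBX was not tested. A match is a string of letters, and whether these folded in the oocytes was not measured here. The untested Kif1c, a motor of vesicles and of mRNA transport, held 3 matches, of which the shortest, in the 3′ UTR, had single-base loops throughout, but Kif1c stayed at or below 0.183 FPKM in all libraries.
Kif1c, 3′ UTR, chr11:70729157-70729171, plus strand: GGGtGGGtGGGtGGG

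Kifc3, a minus-end motor known from adherens junctions and apical transport, was the other transport member of high level. It was at 46.2 and 35.3 FPKM in GV oocytes, 9.13, 19.0 and 15.8 with DMSO, and 36.3 and 13.9 with BYBX. The BYBX libraries differed from each other by more than those of any other group, one within the GV range and the other within that with DMSO. It fell by 1.46 (SE 0.38, adjusted p = 0.00254) with DMSO but rose by 0.34 at the same total and by 0.84 after median centring, neither called. Its difference between BYBX and DMSO was 0.65 (95% interval -0.17 to 1.47, adjusted p = 0.145).

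The other 6 tested transport members were the kinesin-2 subunits Kif3a and Kif3b, the conventional kinesin heavy chains Kif5b and Kif5c, Kif1b, which moves mitochondria and synaptic vesicle precursors, and Kif16b. All 6 were lower with DMSO than in GV oocytes, as were 8 of the 8 tested transport members, with log2 differences of the 6 from -1.86 to -0.78, and all 6 except Kif3a, at -1.86, moved by less than the median entry. Kif1b and Kif5c were among those that were higher at the same total. With BYBX, 5 of 8 transport members were higher than with DMSO, where 65.2% of all entries were (88.3% for the fall with DMSO). Kif5b, singled out after its values were seen, was the only tested member with a lower mean with BYBX (4.42 FPKM) than with DMSO (4.81 FPKM). Its 2 BYBX libraries, at 4.65 and 4.19, overlapped the DMSO libraries at 4.13, 5.17 and 5.14, and both lay below GV at 16.3 and 11.5. The difference was -0.10 (95% interval -0.61 to 0.42, adjusted p = 0.72), and at the same total Kif5b was called lower with BYBX.

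Of the spindle members 13 of 13 fell with DMSO, 8 of 13 were higher with BYBX than with DMSO, and 6 of 13 were lower with BYBX than in GV oocytes, beside 88.3%, 65.2% and 69.2% of all entries. The 5 that were not called between BYBX and DMSO were Kif20a, Kif23, Kif20b, Kif18a and Kif2a, all of which turned to negative differences at the same total. The remaining tested members, Kif24 and Kif9, a kinesin of motile cilia and sperm flagella, were called in all 3 comparisons, lowest with DMSO and highest in GV oocytes. Kif9 was almost gone with DMSO, at 1.36% of its GV mean of 2.76 FPKM, and was at 34.1% with BYBX. At the same total it was again called lower with DMSO than in GV oocytes (-1.21) and higher under BYBX than under DMSO (0.91). After median centring the signs turned (0.46 and -0.38), and both turned differences were called. The pseudocount bounds the fall of low entries, and its part in this turn was not tested.

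Several calls rested on single libraries. Without GV replicate 1, the falls with DMSO were -0.22 for Kif20a, -0.23 for Kif23, -0.63 for Kif20b, -0.50 for Kif18a, -0.82 for Kifc1 and -1.27 for Kifc3, and these 6 were no longer called. Without MII replicate 3 with DMSO, Kif20a, Kif23, Kif20b and Kif18a were not called either, at -0.61, -0.57, -0.52 and -0.70. Kif20a also lost its call without MII replicate 2 with DMSO, Kif20b lost its call without GV replicate 2, and Kif23 when any library but GV replicate 2 was left out. Between BYBX and DMSO, Kif14 (0.64) and Kifc1 (0.55) were not called without BYBX replicate 1, and Kif11 was not called without BYBX replicate 2 (0.60) or DMSO replicate 3 (0.67). Kif3b, Kif5c and Kif16b also lost this call without at least 1 library, as did Kif11, Kif14 and Kif24 their call between BYBX and GV. The calls of Kif22, Kif17, Kif4, Kif18b and Kif9 in all 3 comparisons, and of Kif2c in the first 2, held without each library in turn.

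**Figure D3:**
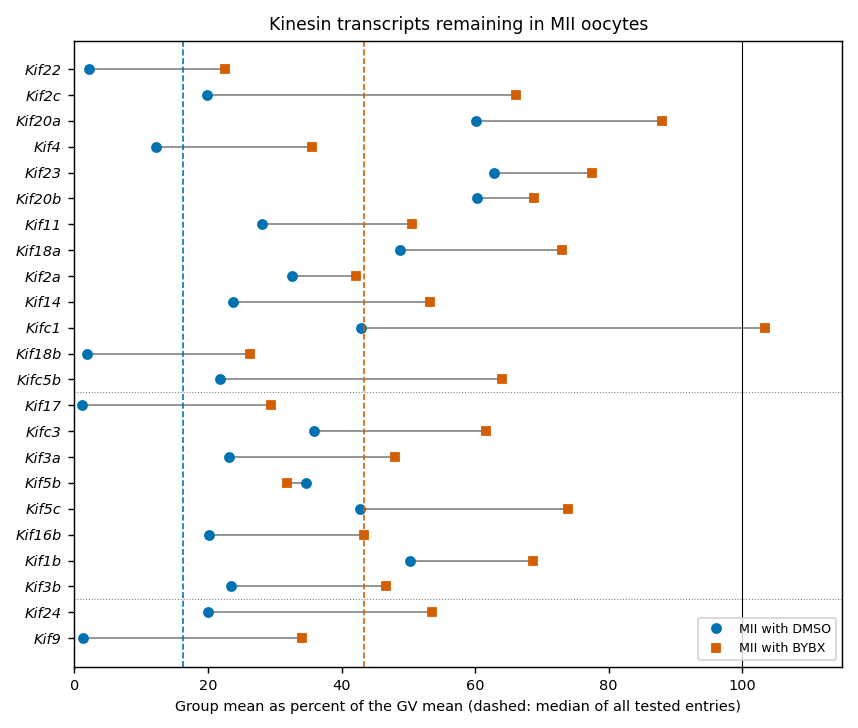
Group mean of each of the 23 tested kinesin entries as a percent of its GV mean, with DMSO (circles) and with BYBX (squares), with dotted lines between spindle, transport and other members and dashed lines at the medians of tested entries, 16.3% and 43.4%. Kif17, Kif9, Kif18b and Kif22 lie at 1.11% to 2.21% with DMSO, Kif20a, Kif20b and Kif23 at 60.2% to 62.9%, and only Kif5b has its square left of its circle.

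The make-up of the kinesin pool changed accordingly, and shares of the summed kinesin FPKM do not depend on the scaling. These shares sum to 100%, so each depends on the others. Kif22 made up 23.5% and 23.4% of the pool in GV oocytes, 2.27%, 1.90% and 2.32% with DMSO, and 10.3% and 11.2% with BYBX. Kif17 made up 13.1% and 13.5%, then 0.719%, 0.430% and 0.710%, and with BYBX 7.70% and 8.17%. For both, BYBX libraries lay between the other groups, and the libraries of a group lay close together.

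The kinesin-6 motors showed the opposite order. Kif20a made up 10.4% and 8.62% of the pool in GV oocytes, 26.5%, 23.9% and 22.9% with DMSO, and 16.7% and 17.98% with BYBX. Kif23 made up 8.25% and 7.38% in GV oocytes, 22.4%, 20.03% and 19.97% with DMSO, and 10.8% and 14.2% with BYBX. Again the groups did not overlap and BYBX lay between the others. Kif2c departed from both orders, with 11.4% and 11.7% in GV oocytes, 7.34%, 8.10% and 13.2% with DMSO, and 16.6% and 13.9% with BYBX, the highest.

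Over the 23 tested members, 6 had a lower share and 8 a higher share with DMSO than in GV oocytes without overlap between libraries, and for all tested entries divided by the same sum these were 51.2% and 30.6%. Between BYBX and DMSO 7 members had a higher share and 6 a lower one, against 43.5% and 22.7% of all entries. Between BYBX and GV 7 were lower and 8 higher, against 40.4% and 23.4%. Spindle members together made up 74.2% and 71.98% of the pool in GV oocytes, 85.1%, 79.9% and 80.7% with DMSO, and 75.4% and 80.0% with BYBX, so that the BYBX range touched that with DMSO.

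**Figure D4:**
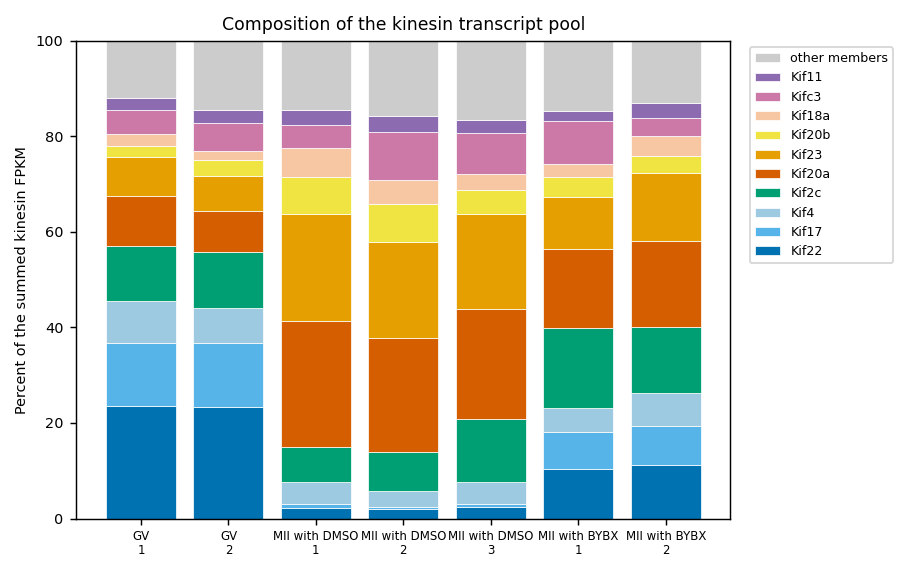
Percent of the summed kinesin FPKM taken by the 10 members of largest mean share in GV oocytes, and by all other members, as stacked bars for each of the 7 libraries. Kif22, Kif17 and Kif4 (blue) take 44.1% and 45.6% of the pool in GV oocytes, 5.78% to 7.70% with DMSO and 23.2% and 26.2% with BYBX. Kif20a, Kif23 and Kif20b (orange to yellow) take 21.1% and 19.3% in GV oocytes, 48.0% to 56.6% with DMSO and 31.6% and 35.7% with BYBX.

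The other 21 entries had a mean of the 3 group means under 1 FPKM, and none exceeded 1.85 FPKM in a library. The highest of them was Kif13b, at a mean of 0.889, and the lowest tested member, at 1.25, lay just over the limit. Kif12, Kif2b and Kif16bos were listed at 0 in every library. A further 12 of the 21 stayed under 0.5 FPKM throughout. When every entry over 0 in at least 1 library was fitted, 7 of the 18 other untested members were lower with DMSO than in GV oocytes (Kif13a, Kif13b, Kif1c, Kif21b, Kif26b, Kif27 and Kif3c), and 3 were higher with BYBX than with DMSO (Kif13b, Kif21b and Kif3c). Of all 18497 entries in that fit, 65.0% and 31.3% were. Kif13b, which carries membrane cargo, was at 1.85 and 1.59 FPKM in GV oocytes, 0.0732, 0.119 and 0.199 with DMSO, and 0.859 and 0.776 with BYBX.

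Proteins that load, anchor or regulate kinesins were followed beside them. Of 22 listed partners 16 were tested, and 15 were lower with DMSO than in GV oocytes, 7 were higher with BYBX than with DMSO, and 8 were lower with BYBX than in GV oocytes, with median log2 differences of -1.23, 0.58 and -0.58. Of all entries, 88.3%, 65.2% and 69.2% were called in these directions. Racgap1, which with Kif23 forms centralspindlin, fell from a mean of 48.0 to 10.6 FPKM and was at 19.6 with BYBX. Its log2 difference with DMSO, -2.07 (SE 0.34, adjusted p = 5.7e-05), was larger than that of Kif23, -0.61, although the difference between the genes was not tested. Cenpe, the kinetochore kinesin that the symbol rule leaves out, had means of 36.5, 24.5 and 28.7 FPKM in GV oocytes, with DMSO and with BYBX, and fell by 0.56 (adjusted p = 0.0478) with DMSO. Cytoplasmic dynein, the motor that walks the other way, was followed as a comparison. Of its 22 listed subunits and cofactors 19 were tested, and 18 were lower with DMSO, 16 higher under BYBX relative to DMSO, and 17 lower under BYBX relative to GV, with medians of -2.56, 1.12 and -1.37, beside the same shares of all entries (88.3%, 65.2% and 69.2%).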

How the data were processed

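Libraries were grouped by the treatment and stage in their labels. Per the study's methods, the authors trimmed reads with Trim Galore 0.6.7, aligned them to mm10 with HISAT2 2.2.1, kept uniquely mapped reads and computed FPKM with Cufflinks 2.2.1 on UCSC gene models. The authors then scaled the deposited FPKM values by the ERCC spike-in, and used GV samples to set batches on a common level. The factors and the batches of these libraries are not given in the sources used here, so no value within a batch could be computed, and batch and group cannot be told apart. Kif17 overlaps Sh2d5 on the same strand, so reads of their shared span could count for either. Reads of genes that overlap on opposite strands, among them Kif20a and Cdc23, Kif4 and Pdzd11, Kif18a and Mettl15, and Kif2a and Dimt1, cannot be told apart by strand, since strand use is not stated. The same holds for Kif22 and an antisense gene (Gm31749).

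Of 25912 entries, 4 with a missing value were left out. The 9202 entries with a mean of the 3 group means of at least 1 FPKM were fitted as log2(FPKM + 1) with limma 3.58.1 in R 4.3.3 (lmFit, eBayes with an intensity trend, all 7 libraries, 3 group means), with Benjamini-Hochberg adjustment over all of them and a threshold of 0.05. Fold changes of low entries are understated by the pseudocount of 1. SE are limma's moderated errors. The limma step was tested on simulated data in which a small part of the entries changed, up and down alike. Those data held no shift of most entries and no change of low entries, so the test does not cover these. Sums and percents of total were compared by two-sided exact permutation tests. Depth is unknown and no counting interval can be given, so precision is that of 2 or 3 libraries. Tables were made with Python 3.11.15, numpy 2.4.6 and pandas 2.3.3. Gene positions, transcripts and sequences were read from GENCODE vM21 on GRCm38.

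Members, role groups, and the partner, dynein and marker lists were chosen with earlier results of these data known. Values in every library were given for the 10 members of highest GV mean, every spindle member with a group mean of at least 1 FPKM, and any member called higher than GV in an MII group or lower with BYBX than with DMSO. Kif5b, Kif9, Kif13b, Kif15, Kif16b, Kif1c, Kif24, Racgap1 and Cenpe fall outside this rule and were named after their values were seen. The 8 entries of erythrocyte markers, with Hba-a1 and Hba-a2 listed more than once and Hbb-b2 absent, summed to at most 1.20 FPKM in a library. Alternatives were another pseudocount, other filters, a 2-fold minimum, rescaling to the same total, median centring, no intensity trend, a replicate block, summed symbols, 2 groups at a time, each library left out, the sum without Kif22, and longer loops in the motif. A search of the proteins for the ATP-binding loop was not run, as protein sequences were not used here.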

Additional observations from a re-analysis of the deposited data

How the results depend on the processing

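The direction of most kinesins depends on the scale. At an equal total FPKM in all libraries, 5 members were lower and 6 higher with DMSO relative to GV (23 and 0 as deposited), 5 higher and 1 lower under BYBX relative to DMSO (15 and 0), and 1 lower and 1 higher under BYBX relative to GV (13 and 0). With median centring these counts were 2 and 17, 2 and 13, and 2 and 6. At the same total, 6 members were called in the opposite direction with DMSO relative to GV. With median centring, 17 were in that comparison and 7 under BYBX relative to DMSO. On that scale the median tested entry itself stood at 0.47, -0.44 and 0.037. A turned sign there alone does not show a move against the median entry. The sign turned at the same total for 11, 9 and 13 of the 23 members in these comparisons, and with median centring for 20, 18 and 17. Values follow for the 15 members described library by library. At the same total, the log2 differences that turned with DMSO against GV were Kif20a 1.198, Kif23 1.24, Kifc3 0.34, Kif20b 1.07, Kif11 0.065, Kif18a 0.81, Kif2a 0.22 and Kifc1 0.56. Between BYBX and DMSO they were Kif20a -0.34, Kif23 -0.58, Kifc3 -0.20, Kif20b -0.65, Kif11 -0.043, Kif18a -0.26 and Kif2a -0.44. Between BYBX and GV they were Kif2c 0.40, Kif20a 0.86, Kif23 0.66, Kifc3 0.14, Kif20b 0.41, Kif11 0.022, Kif18a 0.55, Kif14 0.049, Kifc1 0.85 and Kifc5b 0.19. Of the other 8 members, Kif1b and Kif5c turned in all 3 comparisons, Kif5b in the first and Kif24 in the last. With median centring, those of the 15 that turned with DMSO against GV were Kif2c 0.0199, Kif20a 1.65, Kif23 1.70, Kifc3 0.84, Kif20b 1.59, Kif11 0.65, Kif18a 1.37, Kif2a 0.89, Kif14 0.60, Kifc1 1.26, Kif18b 0.22 and Kifc5b 1.15. Between BYBX and DMSO they were Kif20a -0.74, Kif23 -0.98, Kifc3 -0.63, Kif20b -1.08, Kif11 -0.53, Kif18a -0.72, Kif2a -0.96, Kif14 -0.39, Kifc1 -0.25, Kif18b -0.40 and Kifc5b -0.56. Between BYBX and GV they were Kif2c 0.45, Kif20a 0.91, Kif23 0.71, Kifc3 0.21, Kif20b 0.51, Kif11 0.12, Kif18a 0.66, Kif14 0.21, Kifc1 1.010 and Kifc5b 0.59. Of the other 8, all turned in the first comparison, and all but Kif5b in the other two. Which scale is nearer to the RNA content of an oocyte was not tested. A filter of 5 FPKM left 15 tested members, of which 15, 8 and 8 were called in the 3 comparisons, the same members being called in every case. With no filter on level, Kif18a, Kif20a and Kif23 lost their call with DMSO against GV. Kif3b, Kif5c and Kifc1 then lost theirs with BYBX against DMSO. A 2-fold minimum left 17, 5 and 6. Loops of up to 12 bases gave 5 tested members with a motif. With 1 library left out, 17 to 22 members were lower with DMSO than in GV oocytes, 12 to 16 higher with BYBX than with DMSO, and 10 to 15 lower with BYBX than in GV oocytes. The log2 differences that turned then ranged from -0.55 to 0.32 for Kif20a, -0.69 to 0.065 for Kif23, -0.80 to 0.0646 for Kif18a and -0.49 to 0.46 for Kifc1 between BYBX and GV, and from -0.0098 to 1.31 for Kifc3 and -0.0024 to 0.37 for Kif20b between BYBX and DMSO. The kinesin percent of total FPKM, as a ratio to GV, ranged from 0.81 to 1.0145 with DMSO and from 0.90 to 1.12 with BYBX. Without Kif22 these ratios were 1.15 and 1.16.

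Libraries share replicate numbers across groups. Same-numbered libraries deviated together between GV and DMSO (correlations 0.487 and 0.282). They deviated in opposite directions between DMSO and BYBX (-0.601 and -0.348) and between BYBX and GV (-0.33 and -0.33). In a group of 2 libraries the deviations mirror each other, so the correlations within a comparison are not independent. Nothing in the labels ties same-numbered libraries. With a replicate block, 19 members were lower with DMSO than in GV oocytes (Kif18a, Kif20a, Kif20b and Kif23 were not called), 12 were higher with BYBX than with DMSO (Kif11, Kif3b and Kif5c were not called) and 13 lower with BYBX than in GV oocytes. Kif20b turned to -0.0024 between BYBX and DMSO.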
